A study of Mus musculus with 8 samples.

Results

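The subject here is a set of 45 genes that are much more abundant in alpha cells than in beta cells of mouse islets and that remained at a substantial level in beta cells of alpha cell descent. The genes were chosen by these measured RPKM values: a gene was taken when its lowest alpha library had at least 5 RPKM (reads scaled by gene length and library size) and at least 4 times the highest beta library, and when each of the 2 transdifferentiated libraries reached at least 30% of the alpha mean. Of 46955 entries in the table, 140 passed the alpha against beta limits, and 45 of those passed the share limit as well. Another 6 of the 140 (Gcg, Irx1, Irx2, Fev, Pdk4 and Eef1a2) were left out by name, and 89 stayed below the share limit. All the cell groups entered the choice, so the levels of these genes in the cell groups, and the counts of calls between those groups, are given as a description and support nothing.

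Alpha cells make glucagon, the hormone that raises blood glucose, and beta cells make insulin, which lowers it. A small number of cells in adult islets carry the mark of a past in the alpha lineage while making insulin, and such cells are called transdifferentiated. Changing identity of this kind needs both the gain of beta cell genes and the loss of alpha cell genes, and the second step was examined here gene by gene.

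RNA was sequenced from 8 libraries of sorted cells from islets of adult mice, which are described as carrying 3 transgenes. The series text also mentions pools of bitransgenic females without naming libraries, so whether every library came from animals with all of them is not settled. Ins1-H2b-mCherry puts a red protein in nuclei of cells that use the insulin promoter. Gcg-cre expresses Cre recombinase in cells that use the glucagon gene, and the floxed YFP allele then makes a yellow protein in those cells and, because the change is in the DNA, in everything that descends from them. Alpha cells (3 libraries, 2 labelled male and 1 female) were sorted for YFP, beta cells (3 libraries, 1 male and 2 female) for mCherry, and transdifferentiated cells (2 libraries, 1 male and 1 female) for both. Each pool held islets of 10 to 12 animals, cultured overnight in 5.5 mM glucose before sorting. Sorting on both colours cannot tell a beta cell that was once an alpha cell from any other cell in which both transgenes had been active, and in bulk libraries fewer cells of a type and less RNA per cell cannot be told apart. The titles of alpha replicates 1 and 2 are alike except for an added letter b, as are those of beta replicates 1 and 2, so each of these pairs may come from 1 pool of animals. The n of 3 is then a number of libraries, and p-values measure only the spread between these samples, which may be technical.

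Depth was recovered from the steps of the RPKM values. It came to between 12911450 and 14093589 reads in the alpha libraries and between 14336718 and 21395071 in the beta libraries, but only 1244172 and 2167227 in the transdifferentiated libraries. For a transcript of typical length, 1 read was worth 0.402 and 0.231 RPKM in these last 2 libraries. The summed level of 8 alpha markers was 176073 to 204456 RPKM in alpha, 663 to 2016 in beta and 20278 to 20402 in transdifferentiated libraries. That of 10 beta markers was 2520 to 3216, 187559 to 243703 and 140580 to 148230 RPKM in the same order. The alpha and beta libraries thus matched their labels. The transdifferentiated libraries lay between them in both sums, which cannot tell whether single cells held both sets of markers.

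The genes kept on were mostly present at a reduced level. The median over the 45 genes was 47.1% of the alpha mean in transdifferentiated replicate 1 (range 30.5% to 126%) and 42.3% in replicate 2 (31.3% to 113%). In its lower library, a gene stood between 30% and 40% in 23 cases, between 40% and 50% in 13, between 50% and 60% in 3 and above 60% in 6. Those 6 were Ppy, Asb4, Pyy, Arg1, Id3 and Ffar4, which encode a hormone pair, a ubiquitin ligase adaptor, an enzyme, a transcriptional inhibitor and a fatty acid receptor.

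**Figure D1:**
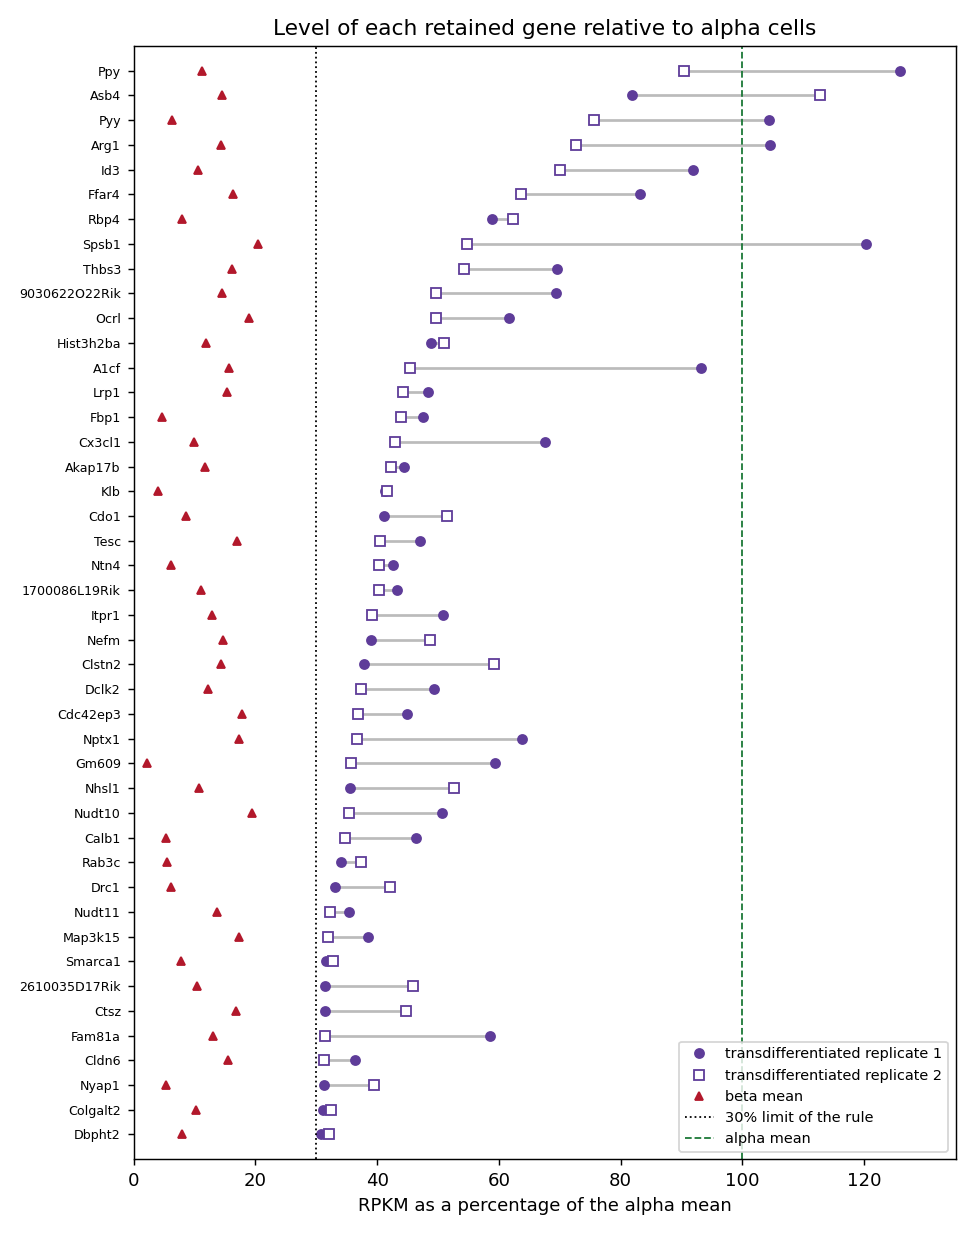
RPKM of 44 of the 45 genes as a percentage of the alpha mean, in the 2 transdifferentiated libraries (filled circles and open squares) and as the beta mean (triangles). Lower shares pile up just over the 30% limit, with 22 of the drawn genes between 30% and 40%, and Ppy is furthest to the right at 126% and 90.4%.

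Both transdifferentiated libraries lay below the lowest alpha library for 39 of the 45 genes, a pattern seen for 13.1% of the 13172 genes tested. For 5 genes (Pyy, Id3, Arg1, Spsb1 and Asb4) 1 of the 2 libraries reached the alpha range. Both did so only for Ppy, a condition that 65.6% of all genes tested met. With the libraries rescaled by median ratios Ppy did not meet it either. All 45 stood above the highest beta library in both libraries (31.0% of all genes tested), which the rule forces. The fold of the transdifferentiated over the beta mean ran from 2.03 to 22.05, with a median of 4.12, against a fold of alpha over beta of 4.89 to 46.4 with a median of 8.46.

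A limma fit over all genes gives the background for these levels. It called 45 of 45 more abundant in alpha than in beta libraries (16.9% of all genes tested), 45 of 45 higher in transdifferentiated than in beta cells (9.1%), and 36 of 45 lower in transdifferentiated than in alpha cells (6.67%). Not called in the last comparison were Id3, Spsb1, Asb4, Arg1, Ppy, Pyy, A1cf, Ffar4 and Rbp4. The median log2 difference of transdifferentiated minus alpha cells was -1.12 over the 45 genes and 0.17 over all genes tested. These contrasts chose the genes, so the calls are no test of them and nothing is read from the counts. The median of all genes moved from 0.17 to -0.05 under median-ratio scaling, which is the shift in level that the choice of scaling can give.

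Counting error is large for many of these genes. In at least 1 transdifferentiated library, 25 of the 45 had fewer than 50 reads, and the fewest were the 7 reads of Cdc42ep3 in replicate 1. For 26 genes the lower 95% counting bound of a share fell under 30% in at least 1 library, so the side of the limit they fall on is not settled at this depth, while 19 were above it in both. The intervals are exact Poisson limits and cover counting error only. The counting intervals of the 2 libraries did not overlap for 6 genes (Pyy, Ppy, Ctsz, Itpr1, A1cf and Spsb1). The same count over all genes is not given here. Over 10757 genes, chi-square per degree of freedom between these 2 libraries was 3.49, more than counting noise gives, so nothing particular to the 6 is read from this. Replicate 1 was the higher of the 2 for 28 of the 45 genes, or 62.2%, against 52.4% of all genes tested.

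After median-ratio scaling 30 of the 45 still passed the whole rule. Around the share limit the values ran on without a gap. Among those just inside were Dbpht2 at 30.8% in its lower library, Colgalt2 and Nyap1 at 31.2% each and Cldn6 at 31.3%. Among those just outside were Gria2 at 29.5%, Etv1 at 29.2%, Spon2 at 28.8% and Gpr119 at 28.4%, which encode a glutamate receptor subunit, a transcription factor, a secreted matrix protein and a lipid receptor. In the other library these 4 reached 48.4%, 34.2%, 40.5% and 38.7%. Of the 6 genes left out by name, Irx2 alone passed the share limit (31.3% and 36.8%), and Fev passed it in 1 library (41.9% and 26.8%).

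**Figure D2:**
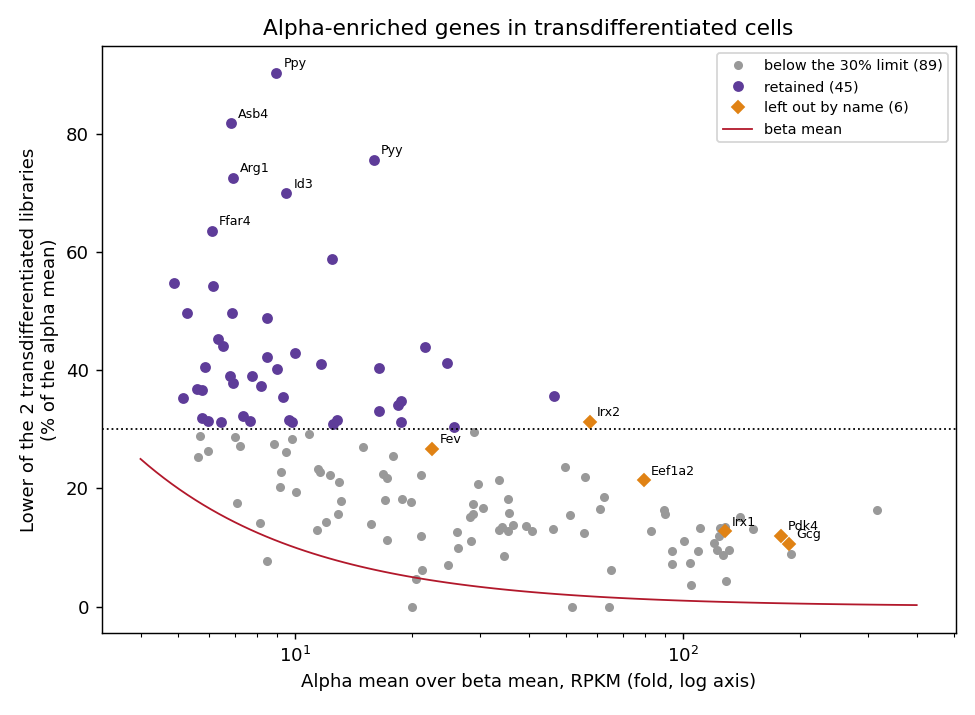
Each of the 140 alpha-enriched genes by its fold of alpha over beta mean RPKM (log axis) and its share of the alpha mean in the lower transdifferentiated library. The 45 retained genes (purple) lie above the dotted 30% line, at folds from 4.89 to 46.4, while Gcg, Pdk4 and Irx1, among the genes left out by name (orange), lie far right and low, and the red curve is where the beta mean itself would lie.

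The retained genes had a higher median level in beta cells than the alpha-enriched genes below the limit. Their median beta mean was 1.82 RPKM, against 0.558 RPKM for the 89 alpha-enriched genes below the limit, at nearly the same median alpha mean (15.8 and 15.1 RPKM). As a share of the alpha mean, the median beta level was 11.8% against 3.45%. When the beta mean was subtracted from both sides, the median share of the 45 genes was 37.2% in place of 44.1% for the mean of the 2 libraries. Both values share columns with the rule and are a description.

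The promoter windows of 5 of these genes are shown because they belong to the most strongly retained hormone, receptor and regulator genes, and because Ppy with Pyy and Rbp4 with Ffar4 are neighbours in the genome. Each runs from 250 bases before the RefSeq start to 50 after it, 5′ to 3′ on the gene's own strand, in build GRCm38.p6. They are chr11:102101270-102101569 (minus strand, Ppy), chr11:102107783-102108082 (minus, Pyy), chr19:38125272-38125571 (minus, Rbp4), chr19:38096829-38097128 (plus, Ffar4) and chr4:136143572-136143871 (plus, Id3). Capitals mark matches to the Maf core site TGCTGAC, the TATA box TATAAA, the forkhead motif TGTTTAC and the GC box GGGCGG on either strand, and a match is a description of letters, not a binding site.
Ppy: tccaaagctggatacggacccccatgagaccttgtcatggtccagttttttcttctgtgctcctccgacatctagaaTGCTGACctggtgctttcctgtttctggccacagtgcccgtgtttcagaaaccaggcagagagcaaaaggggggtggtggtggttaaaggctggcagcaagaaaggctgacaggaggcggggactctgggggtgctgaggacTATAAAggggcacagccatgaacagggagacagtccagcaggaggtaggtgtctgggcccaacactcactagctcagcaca
Pyy: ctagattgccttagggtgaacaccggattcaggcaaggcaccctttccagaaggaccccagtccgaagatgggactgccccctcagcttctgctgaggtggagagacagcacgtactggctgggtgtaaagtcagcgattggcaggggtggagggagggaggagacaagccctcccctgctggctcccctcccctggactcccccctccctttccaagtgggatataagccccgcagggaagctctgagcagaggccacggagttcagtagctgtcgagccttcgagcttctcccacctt
Rbp4: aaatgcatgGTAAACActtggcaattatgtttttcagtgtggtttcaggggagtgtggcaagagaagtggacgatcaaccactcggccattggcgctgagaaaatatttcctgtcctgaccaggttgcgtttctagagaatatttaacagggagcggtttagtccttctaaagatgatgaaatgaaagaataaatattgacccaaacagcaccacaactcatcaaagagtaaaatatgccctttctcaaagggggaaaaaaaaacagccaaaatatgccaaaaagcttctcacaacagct
Ffar4: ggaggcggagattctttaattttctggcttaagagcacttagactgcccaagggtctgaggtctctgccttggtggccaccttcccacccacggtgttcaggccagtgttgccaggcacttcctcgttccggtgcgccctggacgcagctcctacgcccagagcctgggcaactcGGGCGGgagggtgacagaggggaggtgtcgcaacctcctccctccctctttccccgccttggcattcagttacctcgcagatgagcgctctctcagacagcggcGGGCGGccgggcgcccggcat
Id3: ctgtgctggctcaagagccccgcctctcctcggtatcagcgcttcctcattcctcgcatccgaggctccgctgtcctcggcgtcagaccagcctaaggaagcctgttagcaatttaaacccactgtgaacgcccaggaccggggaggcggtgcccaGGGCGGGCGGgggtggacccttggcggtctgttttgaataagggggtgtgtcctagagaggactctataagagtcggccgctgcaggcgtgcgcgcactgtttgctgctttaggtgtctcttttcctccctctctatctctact
Ppy has the Maf core letters at -173 and TATAAA at -31 from the start. Rbp4 has the forkhead letters on the reverse strand at -241, and Ffar4 and Id3 carry GC boxes.

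Secreted proteins came first among the retained genes by level. Ppy (chromosome 11, 102099930 to 102101319, minus strand, GRCm38) encodes pancreatic polypeptide, the hormone of the islet's PP cells, and Pyy (chromosome 11, 102106676 to 102107832) encodes the related peptide YY. Ppy was measured at 6215, 4126 and 4322 RPKM in alpha, 6155 and 4419 in transdifferentiated, and 344, 822 and 472 in beta libraries. The means were 4888 ± 1154 (SD, n = 3), 5287 ± 1227 (SD, n = 2) and 546 ± 247 (SD, n = 3). The transdifferentiated cells were within the alpha range and well apart from beta cells. Pyy was measured at 6807, 3833 and 4547 RPKM in alpha, 5283 and 3829 in transdifferentiated, and 245, 452 and 255 in beta libraries. Its lower transdifferentiated value was just below the lowest alpha value. Replicate 1 exceeded replicate 2 for both hormones beyond counting error, at 126% (95% interval 122% to 130%) against 90.4% (87.9% to 93.0%) for Ppy and 104% (101% to 108%) against 75.6% (73.6% to 77.7%) for Pyy.

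Rbp4 (chromosome 19, 38116629 to 38125281) encodes the retinol carrier of blood, which in islets is also abundant in delta cells. It was measured at 346, 368 and 305 RPKM in alpha, 200.1 and 212 in transdifferentiated, and 20.6, 39.2 and 21.9 in beta libraries. The 3 groups did not overlap, though the limma fit did not call Rbp4 lower in transdifferentiated than in alpha cells. The 2 transdifferentiated libraries agreed within counting error at 58.9% and 62.4%. The remaining 3 secreted proteins were at far lower levels. Cx3cl1, a chemokine, had an alpha mean of 11.9 RPKM with shares of 67.6% and 43.0%. Ntn4, a netrin of basement membranes, was at 10.1 RPKM in alpha, and 4.30 and 4.07 in transdifferentiated libraries. Nptx1, a neuronal pentraxin, was at 6.52 RPKM in alpha, and 4.16 and 2.39 in transdifferentiated libraries.

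Ppy, Pyy and Rbp4 also mark other endocrine cells, and levels of further markers of those cells are given here. Sst, which encodes somatostatin of delta cells, was at 2845, 1000.2 and 1357 RPKM in alpha, 465, 849 and 289.5 in beta, and 2885 and 2749 in transdifferentiated libraries. Hhex, the delta cell transcription factor, was at 4.84, 1.75 and 2.44 RPKM in alpha, 0.922, 2.29 and 0.727 in beta, and 7.12 and 4.09 in transdifferentiated libraries, so that 1 beta library lay among the alpha values. Ghsr, the ghrelin receptor of delta cells, was at 3.08 and 2.19 RPKM in transdifferentiated cells and at most 1.48 in the other libraries. All 5 delta markers were detected in both transdifferentiated libraries, and their sum was 2987 to 3121 RPKM there, 1386 to 3215 in alpha and 327 to 907 in beta libraries. The sum of Ppy, Pyy and Ghrl was 8249 to 11439, 7961 to 13025 and 590 to 1274 RPKM in that order. Ghrl, the ghrelin gene of epsilon cells, was at 3.01, 1.24 and 0.986 RPKM in alpha, 0.745 and 0.428 in transdifferentiated, and 0.129 to 0.303 in beta libraries. The transdifferentiated values amount to very few reads, as 1 read was worth 0.402 and 0.231 RPKM there for a 2 kb transcript. No direction is read from them. The part of delta and PP cells in the levels of Ppy, Pyy and Rbp4 was not tested.

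**Figure D3:**
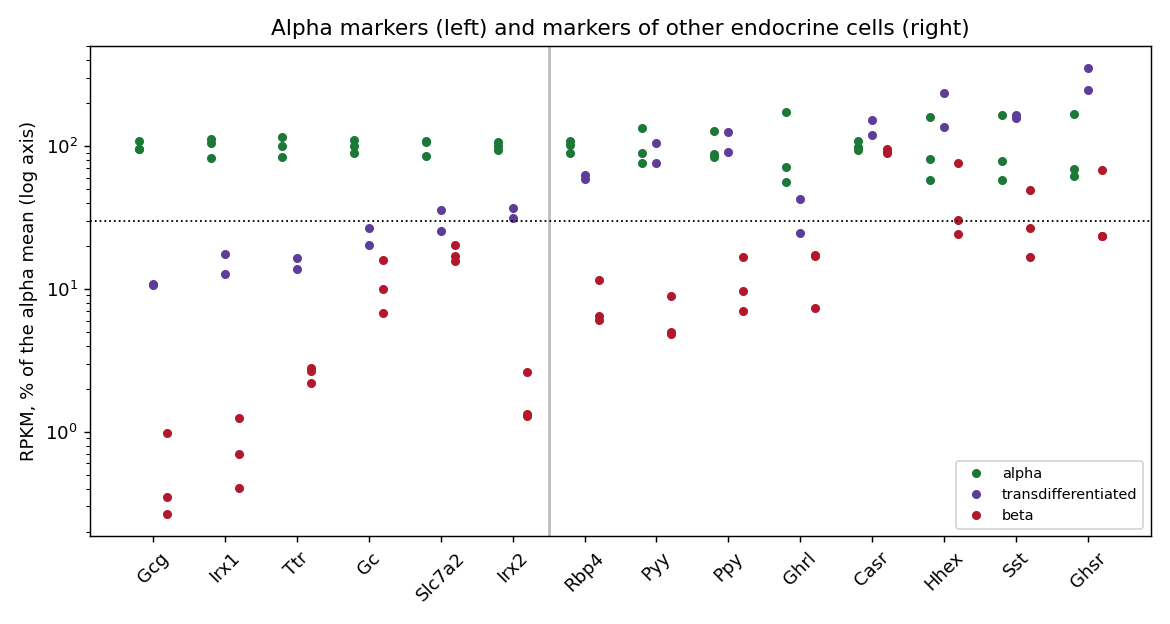
RPKM in every library as a percentage of the alpha mean (log axis), for 6 alpha markers at left and 8 markers of other endocrine cells at right, with the dotted line at 30%. Gcg lies near 11% in transdifferentiated cells, whereas Sst, Hhex and Ghsr lie above 100% there.

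The 8 alpha markers themselves were mostly kept at less than the 45 genes. Gcg, the glucagon gene, stood at 10.8% and 10.6% of its alpha mean, and Irx1, a transcription factor gene, at 12.7% and 17.7%. Ttr, a thyroid hormone carrier, was at 13.7% and 16.4%, and Gc, the vitamin D carrier, at 26.7% and 20.2%. Irx2 was the only marker over 30% in both libraries, and Slc7a2, an arginine transporter, was over it in 1 (35.5% and 25.3%). Of the 8, 5 stayed under 20% in both libraries.

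Receptors and signalling proteins made up 12 of the 45 genes by a grouping made from general knowledge after the values were known. Ffar4 (chromosome 19, 38097071 to 38114263) encodes a G protein-coupled receptor for long-chain fatty acids. It was measured at 23.8, 24.3 and 20.6 RPKM in alpha, 19.04 and 14.6 in transdifferentiated, and 2.42, 4.56 and 4.26 in beta libraries. Both transdifferentiated values lay below every alpha value and above every beta value, with shares of 83.1% and 63.6% that rest on 33 and 44 reads. Klb encodes beta-Klotho, a co-receptor for endocrine fibroblast growth factors, and had 16.4, 16.0 and 15.1 RPKM in alpha, 6.54 and 6.59 in transdifferentiated, and 0.683, 0.976 and 0.261 in beta libraries. Its shares of 41.3% and 41.7% were nearly the same in both libraries, far above beta cells. Lrp1, an endocytic receptor, had an alpha mean of 7.31 RPKM and 3.54 and 3.23 RPKM in the transdifferentiated libraries.

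Several of these proteins act on inositol phosphates and calcium. Itpr1 encodes the inositol trisphosphate receptor that releases calcium from the endoplasmic reticulum, and had 24.4, 22.8 and 23.3 RPKM in alpha, 2.44, 3.98 and 2.68 in beta, and shares of 50.9% and 39.1%. Those shares rest on 272 and 364 reads and differed beyond counting error, at 45.04% to 57.3% against 35.2% to 43.3%. Ocrl, an inositol polyphosphate phosphatase of the trans-Golgi and endosomes, had 33.3, 35.9 and 41.1 RPKM in alpha, 22.7 and 18.3 in transdifferentiated, and 6.22, 8.28 and 6.48 in beta libraries. Its groups did not overlap. Nudt10 and Nudt11 encode enzymes that hydrolyse diphosphoinositol polyphosphates, with alpha means of 12.5 and 30.6 RPKM and transdifferentiated means of 5.38 and 10.4 RPKM. Their transcripts share 28.7% of the 50-base windows of Nudt10, so reads can be split between them and their values are uncertain.

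Calcium-binding proteins were represented by Calb1 and Tesc. Calb1, the calcium buffer calbindin, varied among alpha libraries (28.7, 12.4 and 14.8 RPKM) and had 8.62 and 6.47 in transdifferentiated and 0.774 to 1.22 in beta libraries. Tesc, a calcium-binding regulator of a sodium-proton exchanger, had an alpha mean of 10.7 RPKM and 5.05 and 4.35 in transdifferentiated libraries. Map3k15, a kinase of the mitogen-activated cascades, had 158, 141 and 164 RPKM in alpha, 59.5 and 49.4 in transdifferentiated, and 26.0, 28.1 and 26.4 in beta libraries. It shares 13.9% of its exon bases with Pdha1 on the other strand, and reads of such overlaps cannot be told apart in these libraries.

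Asb4 and Spsb1 both encode substrate adaptors of ubiquitin ligases with a SOCS box, and their shares differed in how far the libraries matched. Asb4 was measured at 8.25, 9.75 and 12.0 RPKM in alpha, 8.17 and 11.3 in transdifferentiated, and 0.927, 1.997 and 1.45 in beta libraries. Its shares were 81.8% (58.5% to 111%, 40 reads) and 113% (91.3% to 138%, 96 reads), so the transdifferentiated values fell among or just under those of alpha cells. Spsb1 was measured at 9.27, 8.45 and 8.73 RPKM in alpha, 10.6 and 4.83 in transdifferentiated, and 1.89, 1.52 and 1.999 in beta libraries. Its 2 transdifferentiated libraries lay on either side of the alpha values, with counting intervals of 91.3% to 155% and 40.1% to 73.0%, and a mean of the 2 describes neither.

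**Figure D4:**
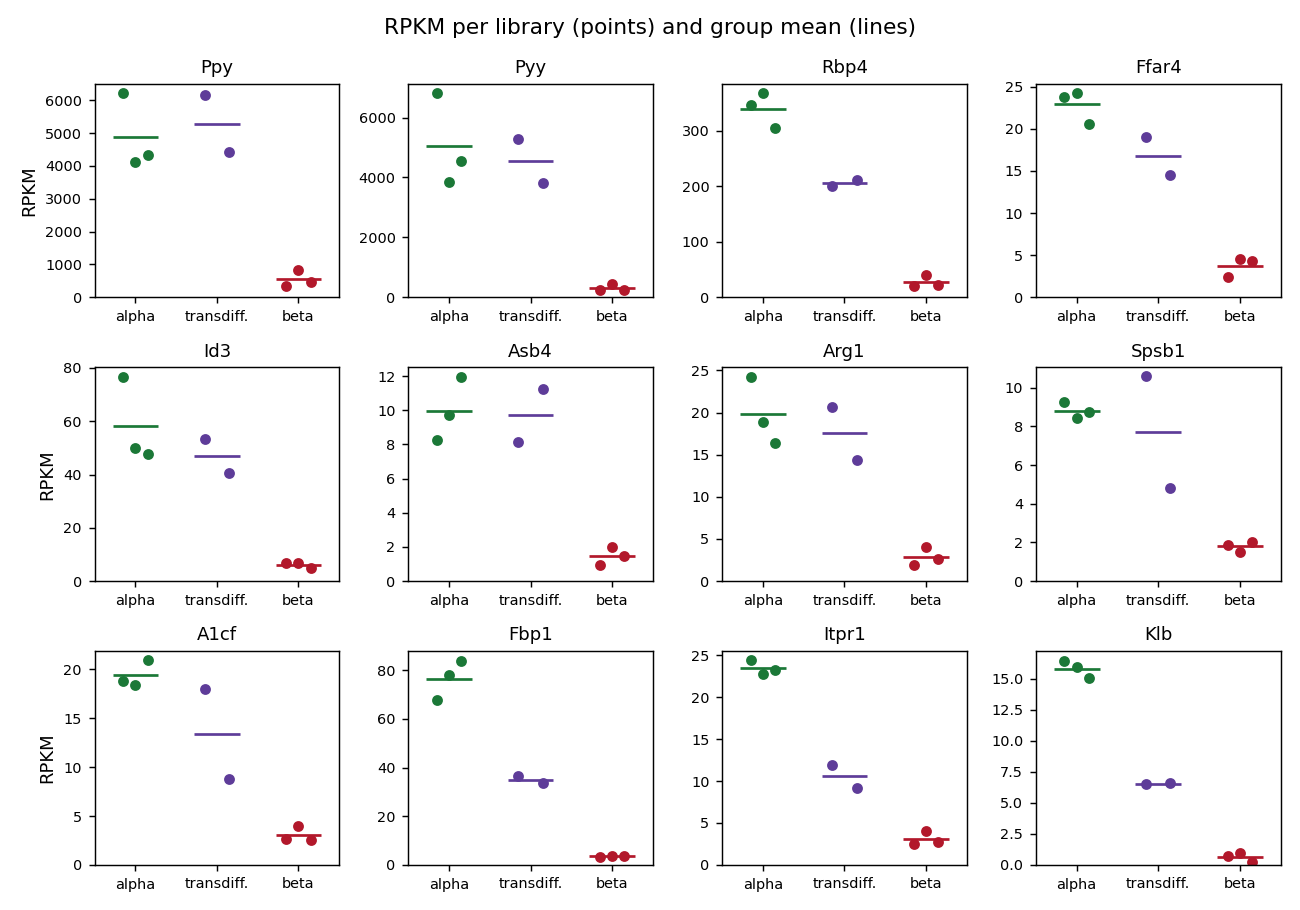
RPKM per library (points) and group mean (lines) for 12 retained genes in alpha, transdifferentiated and beta cells, each panel with its own axis from 0. Ppy, Pyy, Id3, Asb4 and Arg1 overlap between alpha and transdifferentiated cells or nearly do, Fbp1, Itpr1 and Klb sit between the other groups, and the 2 transdifferentiated points of Spsb1 and A1cf lie far apart.

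Enzymes of metabolism and of protein processing were 6 of the 45. Fbp1 (chromosome 13, 62864753 to 62888282) encodes fructose bisphosphatase, a control enzyme of gluconeogenesis, and was measured at 67.6, 78.2 and 83.8 RPKM in alpha, 36.4 and 33.6 in transdifferentiated, and 3.27, 3.84 and 3.48 in beta libraries. Its share of 47.5% and 43.9% placed it well apart from both other groups, 9.9-fold over the beta mean. Arg1, arginase of the urea cycle, had 24.2, 18.8 and 16.3 RPKM in alpha, 20.7 and 14.4 in transdifferentiated, and 1.92, 4.05 and 2.60 in beta libraries. The transdifferentiated values of Arg1 overlapped the alpha range in 1 library, at 104% and 72.6% on 38 and 46 reads. Cdo1, cysteine dioxygenase, had an alpha mean of 14.1 ± 0.571 RPKM (SD, n = 3), and 5.78 and 7.24 RPKM in transdifferentiated libraries.

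Others of the enzymes work on proteins and collagen. Ctsz, the lysosomal protease cathepsin Z, had 282, 493 and 391 RPKM in alpha, 122 and 174 in transdifferentiated, and 67.9, 62.5 and 65.0 in beta libraries, and was spread more widely among alpha libraries than beta libraries. Cathepsins are also abundant in macrophages, whose 8 markers summed to 20.05 to 32.6 RPKM in transdifferentiated, 9.58 to 27.2 in alpha and 91.5 to 107 in beta libraries. Ptprc was at 0 in both transdifferentiated libraries but at most 0.133 RPKM in any library, so nothing is read from its 0. Cd74 was at 12.0 and 2.62 RPKM in transdifferentiated and 1.65 to 2.22 in alpha libraries. Ctss was at 2.96 and 0 RPKM in transdifferentiated and 0.0570 to 0.165 in alpha libraries. The part of macrophages in Ctsz was not tested. Colgalt2, a collagen galactosyltransferase, had an alpha mean of 9.71 RPKM and 3.03 and 3.15 RPKM in transdifferentiated libraries. Colgalt2 is thus near the lower end of what the rule admits.

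Nuclear and RNA-binding proteins included a single gene on the transcription factor list. Id3 (chromosome 4, 136143497 to 136145755) encodes an inhibitor of basic helix-loop-helix factors that binds no DNA itself. It was measured at 76.6, 50.03 and 47.8 RPKM in alpha, 53.4 and 40.7 in transdifferentiated, and 6.64, 6.76 and 4.98 in beta libraries. Its higher transdifferentiated library lay within the alpha range and its lower one just under it, at 91.8% and 70.0%. Smarca1, an ATPase of chromatin remodelling complexes, was even across alpha libraries (27.0, 25.6 and 26.1 RPKM), with 8.27 and 8.60 in transdifferentiated and 1.62 to 2.77 in beta libraries. A1cf, an RNA-binding partner of the apolipoprotein B editing enzyme, was at 18.8, 18.4 and 20.9 RPKM in alpha, 18.1 and 8.80 in transdifferentiated, and 2.62, 4.004 and 2.53 in beta libraries. The 2 transdifferentiated libraries of A1cf differed beyond counting error, at 93.1% (74.5% to 115%) and 45.4% (35.6% to 57.1%). Hist3h2ba, a histone gene, rests on 11 and 20 reads at 14.4 and 15.03 RPKM against an alpha mean of 29.5, and Akap17b had an alpha mean of 15.1 RPKM with 6.69 and 6.38 in transdifferentiated libraries.

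Cytoskeletal, ciliary and vesicle genes were 8 of the 45, many of them better known from neurons. Nefm, the medium neurofilament chain, was measured at 31.4, 34.5 and 26.9 RPKM in alpha, 12.1 and 15.1 in transdifferentiated, and 4.02, 4.22 and 5.37 in beta libraries. Its groups did not overlap, though 19.2% of its exon bases are shared with Nefl on the other strand. Dclk2, a microtubule-associated kinase, ranged from 9.42 to 19.6 RPKM in alpha libraries and had 7.23 and 5.46 in transdifferentiated ones. Rab3c, a Rab GTPase of secretory vesicles, was the most even of the set in alpha cells at 9.42 ± 0.0522 RPKM (SD, n = 3), with 3.21 and 3.53 in transdifferentiated and 0.315 to 0.869 in beta libraries. Drc1, a subunit of the dynein regulatory complex of cilia, was at 17.2 RPKM in alpha, and 5.69 and 7.22 in transdifferentiated libraries.

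The other 4 of these genes had alpha means under 10 RPKM. Nhsl1, an actin regulator of the Nance-Horan family, was at 9.20 RPKM in alpha with 3.27 and 4.84 in transdifferentiated libraries. Nyap1, an adaptor of phosphoinositide kinase in neurons, was at 7.36 RPKM with 2.30 and 2.90, and Clstn2, a synaptic calsyntenin, at 6.71 RPKM with 2.54 and 3.97. Cdc42ep3, an effector of the GTPase Cdc42, was at 6.37 RPKM with 2.86 and 2.35, on 7 and 10 reads. The highest mean share was 48.5% in the group of 8, 108% among the secreted proteins and 97.3% among the receptors and signalling proteins. The median mean shares were 42.1%, 58.0% and 44.4% in the same order, and 41.9% among the enzymes. The groups were made after the values were known and the shares chose the genes, so no difference between groups is read from these values.

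Matrix and junction genes were Thbs3, a thrombospondin, and Cldn6, a claudin of tight junctions. Thbs3 had 14.7, 14.5 and 16.8 RPKM in alpha, 10.7 and 8.32 in transdifferentiated, and 2.06, 2.51 and 2.91 in beta libraries. Cldn6 had 19.6, 16.4 and 16.9 RPKM in alpha, 6.40 and 5.51 in transdifferentiated, and 2.35 to 3.43 in beta libraries. Neither gene overlapped between groups. The fibroblast list summed to 0.585 to 1.85 RPKM in the transdifferentiated libraries and to 1.22 to 1.99 in alpha libraries. Lum was at 0 in both transdifferentiated libraries but at most 0.0672 RPKM in any library, so nothing is read from its 0. Col1a1 was at 0.612 and 0 RPKM in transdifferentiated and 0.0118 to 0.125 in alpha libraries. Col1a2 went the other way, at 0.323 and 0.223 RPKM against 0.617 to 1.14. The part of fibroblasts in Thbs3 was not tested.

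The last 6 genes are non-coding or of no role that can be stated with certainty. The non-coding 1700086L19Rik was at 303, 251 and 232 RPKM in alpha, 113 and 106 in transdifferentiated, and 25.2, 31.0 and 31.0 in beta libraries. Dbpht2, which starts 722 bases beyond it on the same strand of chromosome 12 and is not annotated as protein coding, was at 67.0 RPKM in alpha, with 20.7 and 21.6 in transdifferentiated and 5.35 in beta cells. For each of the 2 neighbours the transdifferentiated libraries were close to each other, while the shares of the alpha mean differed between the genes. They were 43.2% and 40.3% for 1700086L19Rik and 30.8% and 32.2% for Dbpht2. 2610035D17Rik had an alpha mean of 15.6 RPKM with 4.92 and 7.18 in transdifferentiated libraries, 9030622O22Rik 8.27 with 5.73 and 4.11, and Fam81a 5.72 with 3.35 and 1.79. Gm609 had the highest fold of alpha over beta mean of the 45, 46.4, with 6.01, 5.89 and 7.47 RPKM in alpha, 3.83 and 2.30 in transdifferentiated, and 0.0730 to 0.265 in beta libraries.

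Of 13 gene family lists drawn by symbol, 14 of the 45 genes were on at least 1, and 31 were on none. Hormone and granule genes held 3 of the 45 (Pyy, Ppy and Rbp4), 2 of the 89 alpha-enriched genes below the limit and 38 of the 13172 tested. Adhesion and axon guidance genes held 3 of the 45 (Cldn6, Ntn4 and Nptx1) and 3 of the 89, and cytoskeleton genes 2 (Nefm and Dclk2) and 4. G protein-coupled receptors (Ffar4), exocytosis and Rab genes (Rab3c), transcription factors (Id3), matrix and protease genes (Thbs3), signalling enzymes (Map3k15) and imprinted genes (Asb4) held 1 of the 45 each, and 3, 1, 5, 1, 9 and 3 of the 89. In that order they held 88, 124, 545, 67, 363 and 37 of the 13172 tested. The lists of solute carriers, ion channels, ligand-gated receptors, and lipid and small molecule enzymes held none of the 45 and 4, 4, 1 and 4 of the 89. They held only 1.58%, 0.653%, 0.0911% and 1.54% of all genes tested, so nothing is read from the empty lists. Symbol patterns miss genes, so an empty list does not mean that no such gene was kept. Itpr1, which releases calcium, and the metabolic enzymes Fbp1, Arg1 and Cdo1 were retained but are on none of the lists. These lists are small, and no difference between the 45 and the 89 was tested.

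By position, 7 of the 45 genes (15.6%) lay on the X chromosome, among them Map3k15, Ocrl, Nudt11, Smarca1, Akap17b and Nudt10. The share was 11.5% among the 89 alpha-enriched genes below the limit that could be placed and 3.37% among all genes tested. Within 200 kb of another of the 45 lay 10 genes, in 5 pairs. Ppy and Pyy were 5.36 kb apart on the same strand, Ffar4 and Rbp4 2.37 kb apart on opposite strands, and Smarca1 and Ocrl 19.4 kb apart on opposite strands, each with no coding gene between. Ppy and Pyy shared none of their 50-base windows, although their products belong to the same peptide family. Of the 87 placed alpha-enriched genes below the limit, 14.9% had a neighbour of their own set at that distance, against 22.2% of the 45.

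A promoter window was matched for 34 of the 45 genes. The GC box GGGCGG was in 73.5% of them, 50.8% of 63 alpha-enriched genes below the limit and 65.7% of 9280 genes tested. The E-box CANNTG was in 47.1%, 74.6% and 62.7% in the same order, and the forkhead letters TGTTTAC in 8.82% (9030622O22Rik, A1cf and Rbp4), 4.76% and 2.47%. TAATTA, the core letters of many homeodomain sites, was in 5.88%, 3.17% and 2.34%. TGCTGAC was in 5.88%, 4.76% and 3.45%, the cyclic AMP response element TGACGTCA in 5.88%, 1.59% and 3.55%, and TATAAA in 8.82%, 6.35% and 6.52%. Both strands were searched, and most of these shares among the 34 rest on 2 or 3 genes.

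Sex was the only labelled variable that the choice of genes did not use. In a limma fit with cell group as a term, over 4 male and 4 female libraries, 0 of the 45 genes passed an adjusted p of 0.05 (0.0456% of all genes tested did), with a lowest adjusted p of 0.843. Limma with voom on recovered reads also called 0 and had 1 at an unadjusted p under 0.05. By limma without voom there were 3 at an unadjusted p under 0.05, beside 5.19% of all genes tested, so they are named as a description only. The 3 were Nhsl1 (-0.37, male minus female on the log2 scale, SE 0.113, adjusted p = 0.843), Drc1 (-0.24, SE 0.095, adjusted p = 0.843) and Nudt10 (0.25, SE 0.104, adjusted p = 0.843). Differences over the 45 genes ran from -0.37 to 0.36, and the 7 X-linked genes from -0.10 to 0.25. The 6 genes called in the whole table were Xist, Gm29650 and the Y-linked Ddx3y, Eif2s3y, Kdm5d and Uty, so the libraries matched their sex labels. A sex difference in how these genes were kept within transdifferentiated cells could not be tested, as there was 1 library of each sex.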

How the data were processed

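The deposited table holds RPKM per gene and library, computed by the authors. Tools named in the submitters' processing notes are STAR 2.5, featureCounts and edgeR 3.14.0, with GRCm38.p4 as the build. Which gene annotation and strand setting went into them is not stated in the sources used here, and the TruSeq v2 kit named in the labels' protocols does not mark strand. Of 46959 entries, 4 with repeated names were left out. Replicates were numbered in accession order, so numbers pair nothing. Some alpha and beta titles carry a letter b whose meaning is not given, and all 8 columns were used.

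Reads were recovered from the steps of the RPKM values. With GENCODE M21 exon lengths, 78.5% of 25353 expressed genes matched by symbol gave whole reads in all libraries within 0.01 read, and lengths of 6874 further genes were solved as the smallest that did. A gene whose true length is a multiple of that would have more reads. Between libraries of a group, chi-square per degree of freedom was 3.49 to 35.4, more than counting noise gives, and each was kept as a library. Alpha replicates 1 and 2 (31.9) and beta replicates 1 and 2 (33.6), whose titles match but for the letter b, may still be preparations of 1 pool each, since such preparations also differ by more than counting noise. Counting intervals are 95% exact Poisson limits.

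Group and sex differences came from limma 3.58.1 (R 4.3.3) with trend on log2(RPKM + 0.5), which understates changes of low genes, for genes of at least 1 RPKM in at least 2 libraries (13172, all 45 included), with Benjamini-Hochberg adjustment over them, after tests on simulated data. The median-ratio, quantile, voom, pseudocount, filter and left-out-library alternatives are given in the closing section.

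The members, the gene family lists and the marker lists were chosen with earlier results of these data known. The genes described in full are the 12 of highest alpha mean, the 12 of highest lower share, those on either side of the limit and those on a family list. The remaining members are named so that they are accounted for, except 1 that is counted but not reported here, as are 2 markers and 1 gene outside the limit, and A1cf, Itpr1, Klb, Calb1, Smarca1 and Gm609 were singled out after their values were seen. Of the other marker lists, acinar genes summed to 325 to 936 RPKM in transdifferentiated, 42.4 to 2607 in alpha and 123 to 3581 in beta libraries, with Amy2a5 at 0 in both transdifferentiated libraries. In the same order duct genes summed to 253 to 304, 700 to 1719 and 262 to 397. Most of the duct sum in alpha libraries was Spp1, at 667 to 1686 RPKM there and 180 and 225 in transdifferentiated libraries. Krt7 went the other way, at 29.1 to 32.1 RPKM in alpha and 69.6 and 75.2 in transdifferentiated libraries. The remaining duct genes were at most 10.5 RPKM in any library. Again in that order, endothelial genes summed to 5.30 to 11.4, 4.49 to 6.80 and 3.08 to 4.97. Schwann genes summed to 2.42 to 4.17, 3.84 to 4.23 and 1.91 to 2.39, with Sox10, S100b and Cdh19 at 0 in both transdifferentiated libraries. These genes and Amy2a5 were at most 0.191 RPKM in any library, so nothing is read from their 0. Promoter windows are from RefSeq (GRCm38.p6), 1 per gene.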

Additional observations from a re-analysis of the deposited data

How the results depend on the processing

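The number of retained genes followed the limits. It was 45 as stated, 70 and 9 with a minimum share of 20% and 50%, 72 and 13 with a fold of 3 and 8, 69 and 30 with a minimum of 2 and 10 RPKM, 38 after median-ratio scaling (30 shared with the 45), and 44 to 59 with 1 library left out, 59 without either transdifferentiated library. The median share was 44.1%, and moved to 38.4% and 87.5% with the lower and higher share limits, 40.6% with a fold of 8, 37.2% after subtracting the beta mean, 60.3% on a log2 scale between beta and alpha, and 40.3% to 45.4% with 1 library left out, lowest without transdifferentiated replicate 1. The number of genes at or above the lowest alpha value in both transdifferentiated libraries was 1 (Ppy). It was 3 with a fold of 3 (Mpp2, Ppy and Zim1), 0 with a fold of 8, 0 after median-ratio scaling, and 1 to 5 with 1 library left out (3 without beta replicate 2, 2 without transdifferentiated replicate 1, 5 without transdifferentiated replicate 2).

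Only 19 of the 45 genes reached a mean of 10 RPKM. In that smaller fit 19 were called in alpha over beta, 19 in transdifferentiated over beta and 12 lower in transdifferentiated than alpha cells, against 45, 45 and 36. These contrasts chose the genes, and the share of all genes called in each alternative fit is not given here. Nothing is therefore read from these counts or from those that follow for the same contrasts. With 1 library left out the counts were 45 in each, 34 to 45 and 26 to 36, where a lone transdifferentiated library is assumed to vary like the other groups. Voom on recovered reads called 40 and 27 in the last 2 comparisons. With that title letter b as a replicate block the counts were 45, 45 and 29, and the sex count stayed at 0, as it did in every other fit run, at lowest adjusted p-values from 0.741 to 0.966.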
